A study of Mus musculus with 531 samples.

Results

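The 10 genes described here take up glucose and break it down to lactate: the glucose transporters Slc2a1 and Slc2a3, and the enzymes Hk2, Pfkp, Aldoa, Gapdh, Pgk1, Eno1, Pkm and Ldha. They were chosen by name as members of this pathway and make up 10 of the 22084 genes in the count table, and all 10 passed the filter on low counts in every comparison. RNA was sequenced from single cells of C57Bl/6Babr mouse embryos at the embryonic days written E4.5, then E5.5, then E6.5, with no treatment or genetic change in any group. By the labels, 5 embryos were taken on the first of these days, 1 on the next and 2 on the last. Cells were picked by pipette after part of each embryo had been removed. Trophectoderm was taken off at E4.5 by immunosurgery, visceral endoderm and extraembryonic ectoderm were pulled off the epiblast at E5.5, and extraembryonic tissue was dissected away at E6.5.

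Cells bring in glucose through carrier proteins of the Slc2a family, and hexokinase traps it by phosphorylation. Phosphofructokinase commits the sugar to glycolysis, aldolase splits it, and the later enzymes harvest ATP and make pyruvate, which lactate dehydrogenase turns into lactate. The mouse blastocyst takes up increasing amounts of glucose, and the epiblast after implantation is known for a strongly glycolytic metabolism. Several steps have more than 1 gene, and the isozymes differ in regulation and in the tissues that use them.

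Of 264 cells, 217 held at least 50000 counts and 2000 detected genes and were kept, with 112008 to 8904445 counts in a cell. The labels give no lineage, so cells were clustered within each stage and named from marker genes. The E4.5 embryos held 20 epiblast-like cells, 50 endoderm-like cells and 5 left unnamed. At E5.5 the single embryo gave 51 epiblast-like and 8 endoderm-like cells. At E6.5 there were 16 epiblast-like, 22 endoderm-like and 22 unnamed cells in both embryos, and 23 mesoderm-like cells in embryo 2. Levels are CPM, counts scaled to a fixed library total, of the counts summed over the cells of a lineage in an embryo, and tests used those sums with the embryo as the replicate. The E6.5 epiblast-like cells also carried endoderm RNA: the summed CPM of 13 endoderm markers ran from 513 to 6171 with a median of 1583, and Apoa1 was read in 16 of 16 of these cells at a median of 286 CPM. In the E5.5 epiblast-like cells the same sum had a median of 530 CPM, and 5 of 13 markers reached 1 CPM, with Apoa1 read in 12 of 51 cells, Amn in 8 and Cubn, Gata4 and Gata6 in 0. At E6.5 Cubn was read in 15 of 16 cells, Gata4 in 7 and Gata6 in 4. The E4.5 sum in epiblast-like cells had a median of 1899 CPM, with 11 of 13 markers at or above 1 CPM. The part of this RNA in the results at E6.5 was not tested.

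Promoter windows are shown for the transporter and enzymes whose RNA changed in opposite directions between stages, as the sequence that these genes do and do not share at their starts. The windows run from 250 bases before to 50 bases after the transcription start in RefSeq (GRCm38.p6), and capitals mark ACGTG or its reverse complement CACGT, the core letters of the hypoxia response element. The letters CACGTG, also the E-box bound by Myc and related factors, hold the motif on both strands. The window of Slc2a1 lies at chr4:119108495-119108794 on the plus strand, that of Pgk1 at chrX:106186850-106187149 on the plus strand, that of Ldha at chr7:46845554-46845853 on the plus strand, and that of Pfkp at chr13:6648722-6649021 on the minus strand.
Slc2a1: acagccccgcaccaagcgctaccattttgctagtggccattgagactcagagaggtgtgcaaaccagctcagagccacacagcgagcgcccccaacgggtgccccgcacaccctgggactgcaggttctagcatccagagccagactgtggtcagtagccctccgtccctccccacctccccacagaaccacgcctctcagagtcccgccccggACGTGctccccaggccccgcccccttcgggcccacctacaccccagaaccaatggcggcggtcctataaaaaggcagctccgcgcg
Pgk1: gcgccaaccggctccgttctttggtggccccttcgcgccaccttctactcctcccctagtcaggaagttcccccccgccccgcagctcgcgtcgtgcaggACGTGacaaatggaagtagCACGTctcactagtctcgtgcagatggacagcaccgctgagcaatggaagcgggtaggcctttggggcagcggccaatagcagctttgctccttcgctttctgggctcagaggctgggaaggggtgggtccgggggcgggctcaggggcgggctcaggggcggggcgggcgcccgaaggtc
Ldha: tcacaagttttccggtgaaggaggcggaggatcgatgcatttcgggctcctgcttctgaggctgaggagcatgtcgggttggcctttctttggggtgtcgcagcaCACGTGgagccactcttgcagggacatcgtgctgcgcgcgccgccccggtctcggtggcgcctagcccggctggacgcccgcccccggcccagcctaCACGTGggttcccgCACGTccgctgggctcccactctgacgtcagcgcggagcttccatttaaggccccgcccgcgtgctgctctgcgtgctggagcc
Pfkp: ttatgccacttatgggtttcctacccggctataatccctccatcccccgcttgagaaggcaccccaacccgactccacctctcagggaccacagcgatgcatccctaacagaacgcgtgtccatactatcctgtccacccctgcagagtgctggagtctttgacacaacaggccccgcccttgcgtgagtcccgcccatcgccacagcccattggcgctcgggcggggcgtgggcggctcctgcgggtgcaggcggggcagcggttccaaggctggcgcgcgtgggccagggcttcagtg
The motif occurred 1 time in the Slc2a1 window, 2 times in that of Pgk1, 5 times in the Ldha window shown (a CACGTG counting on each strand) and 0 times in that of Pfkp. A second Ldha window, at chr7:46846832-46847131, held it 0 times. Windows were found for 9 of the 10 genes, Slc2a3 being the exception, and 7 of the 9 held the motif in at least 1 window, as did 5886 of all 27025 genes with windows, or 21.8%. Of single windows, 8 of 15 of the members and 19.6% of all held it. Members that were not called between stages held it too, Hk2 with 2 matches, Pkm with 2 in 1 of its windows, and Aldoa and Gapdh with 1 in a window, while Eno1 held 0. These matches describe the letters in the windows and say nothing about binding.

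At E4.5 the cells of the 2 lineages differed in 1 transporter and 1 enzyme of the pathway. Slc2a3 RNA was 6.30-fold higher and Pfkp RNA 33.8-fold lower in endoderm-like than in epiblast-like cells of the same embryos, and the other 8 genes did not pass the test. By the quasi-likelihood test of edgeR (Benjamini-Hochberg adjusted), 1 of 10 genes was called higher and 1 lower, where 3.95% of the 15060 genes tested were called higher and 2.32% lower. The members' median log2 fold change was -0.15, beside 0.17 over all genes tested. The fit used embryos 1 to 4, because embryo 5 gave only 2 epiblast-like cells, in which Pfkp stood at 397 and Slc2a3 at 0.484 CPM.

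Slc2a3 (ENSMUSG00000003153, chr6:122727809-122801640, minus strand) encodes a high-affinity glucose transporter. In epiblast-like cells it stood at 23, 53, 44.9 and 78.4 CPM in embryos 1 to 4, and in endoderm-like cells at 1171, 124, 359, 270.1 and 476 CPM in embryos 1 to 5. Every embryo's endoderm-like cells lay above every embryo's epiblast-like cells. Within the low epiblast-like sums 1 cell gave 57.9%, 80.7%, 67.5% and 90.9% of the Slc2a3 counts in embryos 1 to 4. The log2 fold change was 2.66 ± 0.51 (SE, n = 4 embryos, edgeR adjusted p = 9.80e-06). Within the embryos labelled P1 (1 and 2) it was 3.26 (adjusted p = 0.0862), within those labelled P2 (3 and 4) 2.30 (adjusted p = 0.117), and with limma on cells weighted equally 2.90 (adjusted p = 0.0642). With each embryo left out in turn it ran from 1.91 to 3.22 and stayed called in edgeR.

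Slc2a1 (ENSMUSG00000028645, chr4:119108711-119137983, plus strand) encodes the widely used basal glucose carrier. Its levels were 78.1, 115, 160.4 and 154 CPM in epiblast-like cells and 172, 220.4, 162, 123 and 91.3 CPM in endoderm-like cells. These ranges overlapped, and the log2 fold change of 0.28 ± 0.47 did not pass (edgeR adjusted p = 0.898).

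Pfkp (ENSMUSG00000021196, chr13:6579768-6648777, minus strand) encodes the platelet-type phosphofructokinase, an isozyme of the committing step. Its levels in epiblast-like cells were 168, 196, 208 and 169 CPM, a mean of 185 ± 19.8 (SD, n = 4). In endoderm-like cells they were 22.3, 3.43, 4.67, 3.90 and 23.8 CPM, a mean of 11.6 ± 10.4 (SD, n = 5). The groups were far apart in each embryo, and in endoderm-like cells of embryos 2 and 3 all Pfkp counts came from 1 cell each. The log2 fold change was -5.08 ± 0.79 (edgeR adjusted p = 1.72e-08), and it was called in all 14 alternatives run, from -5.65 to -4.08.

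Hk2 (ENSMUSG00000000628, chr6:82725025-82774454, minus strand), a hexokinase that can bind mitochondria, had 139, 120.2, 294 and 159 CPM in epiblast-like and 173, 167, 107, 98.5 and 118 CPM in endoderm-like cells. The ranges overlapped, with embryo 3 alone high in the epiblast-like cells, and the log2 fold change was -0.50 ± 0.47 (edgeR adjusted p = 0.763). The enzymes after phosphofructokinase likewise overlapped between the lineages. Their log2 fold changes were -0.61 for Aldoa, -0.23 for Gapdh, 0.63 for Pgk1, -0.08 for Eno1, -0.22 for Pkm and 0.51 for Ldha. Of these Aldoa had the lowest adjusted p in edgeR, 0.524, and gave 1923, 2976, 1369 and 1761 CPM against 1323, 1679, 1264, 1406 and 1396 CPM. Gapdh varied most between embryos, since the epiblast-like cells of embryo 2 held 23.8 CPM and those of the other 3 embryos 166 to 219 CPM.

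**Figure D1:**
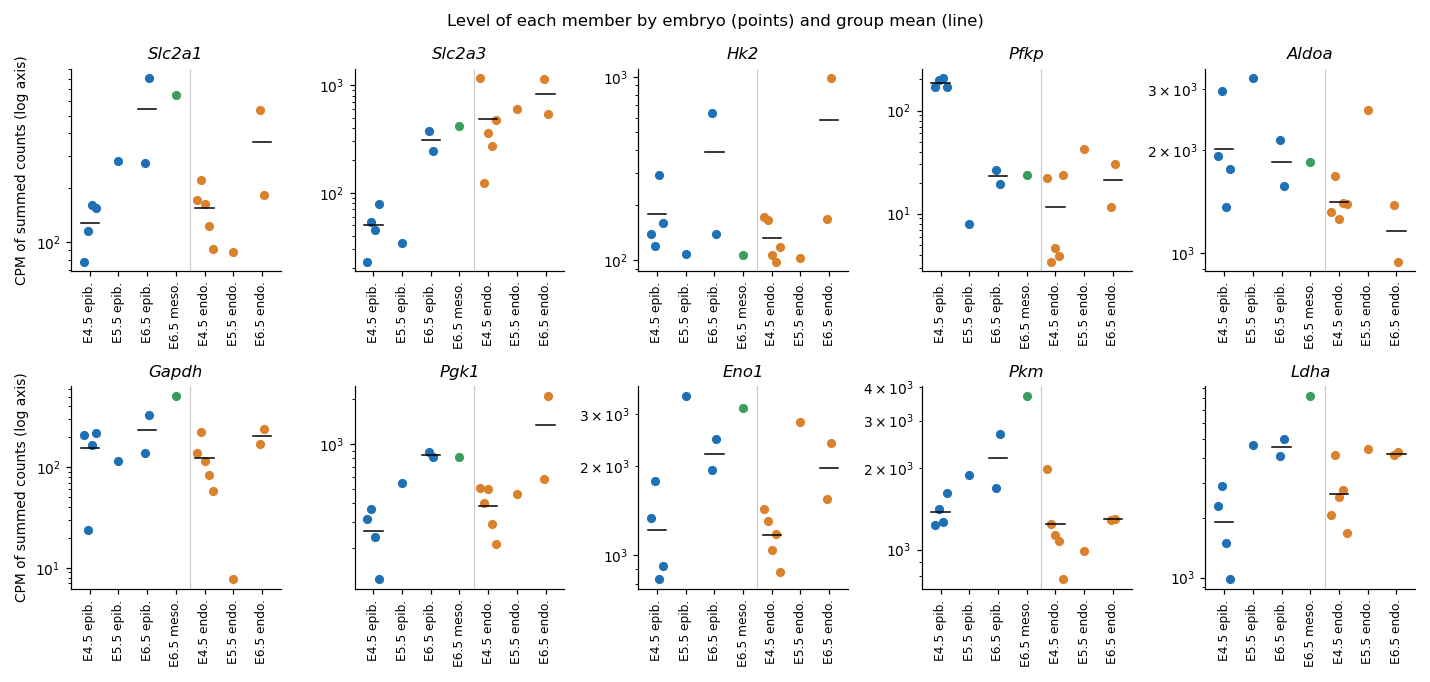
Levels of the 10 genes as CPM of summed counts (log axis), 1 point per embryo and lineage, with a line at the mean over embryos. Pfkp sits at 168 to 208 CPM in E4.5 epiblast-like cells and at 42.5 CPM or below in every other named group, while Slc2a3 is higher in the endoderm-like than in the epiblast-like cells at each stage.

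From E4.5 to E6.5 the epiblast-like cells gained RNA for glucose uptake and for 2 enzymes of lower glycolysis and lost Pfkp. Slc2a1, Slc2a3, Pgk1 and Ldha rose by log2 fold changes of 2.21, 3.00, 2.03 and 1.52, and Pfkp fell by 2.65. By the quasi-likelihood test of edgeR (Benjamini-Hochberg adjusted) 4 of 10 genes were called higher and 1 lower, where 2.78% of 12803 genes were called higher and 1.84% lower. The members' median was 1.31 and that of all genes tested 0.17. Of the 10 genes 8 had an unadjusted p under 0.05, as had 2282 of the 12803 genes tested. Each stage has its own label prefix, so stage and prefix cannot be told apart.

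Slc2a1 stood at 275 and 809 CPM in the epiblast-like cells of E6.5 embryos 1 and 2, both above the highest E4.5 embryo at 160.4 CPM. The log2 fold change was 2.21 ± 0.47 (edgeR adjusted p = 0.00659), and without E6.5 embryo 2 it was 1.74 (adjusted p = 0.0844). Slc2a3 stood at 371 and 247 CPM, above all 4 embryos at E4.5, where no epiblast-like group passed 78.4 CPM. Its log2 fold change was 3.00 ± 0.58 (edgeR adjusted p = 0.00359). Without E6.5 embryo 1, which leaves 1 embryo at that stage, the Slc2a3 log2 fold change was 2.25. The Slc2a3 call was lost in edgeR without cells over 4000000 counts (1.83, adjusted p = 0.109) and with all kept cells of an embryo summed (1.14, adjusted p = 0.208). The last setting pools the lineages, and 50 of the 75 kept E4.5 cells were endoderm-like, so it does not measure epiblast-like cells alone.

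Pfkp fell to 26.8 and 19.3 CPM, below every E4.5 embryo. The log2 fold change was -2.65 ± 0.67 (edgeR adjusted p = 0.0240). The direction held in every setting, from -4.06 without cells over 4000000 counts (edgeR adjusted p = 0.00633) to -1.73 with all kept cells of every lineage summed (adjusted p = 0.0645). Leaving out E4.5 embryo 2 or 3, or E6.5 embryo 1 or 2, took the call away, with adjusted p of 0.0520, 0.0614, 0.0742 and 0.115 in edgeR.

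Pgk1 (ENSMUSG00000062070, chrX:106187100-106203699, plus strand), whose enzyme makes the first ATP of the pathway, had 311, 363, 237 and 122 CPM at E4.5 and 879 and 817 CPM at E6.5. Both later embryos lay above all earlier ones, and the log2 fold change was 2.03 ± 0.45 (edgeR adjusted p = 0.00943). In E4.5 embryo 1 a single cell gave 76.8% of the Pgk1 counts. In E6.5 embryo 1 a single cell of 8904445 counts gave 35.6% of the summed counts and 72.5% of the Pgk1 counts. Without cells over 4000000 counts, a limit chosen after the values were seen, the log2 fold change was 1.60 (edgeR adjusted p = 0.0340). Without E6.5 embryo 1, which leaves 1 embryo at that stage, it was 1.61. Pgk1 lies on the X chromosome, and the sex of the embryos is not recorded.

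Ldha (ENSMUSG00000063229, chr7:46841475-46855627, plus strand), which makes lactate from pyruvate, had 2291, 2882, 1491 and 978 CPM at E4.5 and 4110.0 and 5001 CPM at E6.5. The stages did not overlap, and 1 cell gave 52.6% of the Ldha counts in E6.5 embryo 1. The log2 fold change was 1.52 ± 0.35 (edgeR adjusted p = 0.0136). It was 1.33 without E6.5 embryo 1, which leaves 1 embryo at that stage. Without the E5.5 embryo it was 1.58 (edgeR adjusted p = 0.0566), and with limma 1.59 (adjusted p = 0.0707). A replicate block by embryo number pairs no animals. With this block Pfkp, Pgk1 and Ldha lost their calls in edgeR, at adjusted p of 0.0544, 0.185 and 0.260.

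The 5 genes that were not called differed in their spread. Eno1 (ENSMUSG00000063524, chr4:150236721-150248879, plus strand), the enolase of most cells, had 1336, 1776, 827 and 921 CPM at E4.5 and 1939 and 2471 CPM at E6.5, with a log2 fold change of 1.11 ± 0.35 (edgeR adjusted p = 0.0728). Pkm (ENSMUSG00000032294, chr9:59656368-59679375, plus strand), which makes pyruvate, had 1231, 1411, 1264 and 1619.8 CPM and then 1694 and 2665 CPM, with 0.87 ± 0.32 (adjusted p = 0.133). Both genes had their E6.5 embryos above their E4.5 embryos by less than the test needed. Hk2 had 637 CPM in E6.5 embryo 1 and 139 CPM in embryo 2, within the range of 120.2 to 294 CPM at E4.5. Its log2 fold change of 1.65 ± 0.59 (edgeR adjusted p = 0.125) turned to -0.35 without cells over 4000000 counts and to -0.41 without E6.5 embryo 1, and Hk2 was called in 4 of 17 alternatives. These were without E6.5 embryo 2 (2.47, with 1 embryo left at E6.5) and no filter on low counts (1.66, edgeR adjusted p = 0.0201). The others were Leiden clusters (1.54, adjusted p = 0.0200) and all kept cells of every lineage summed (1.45, adjusted p = 0.00848). Without cells over 4000000 counts 4 members were called higher and 1 lower, with Pkm (0.88, edgeR adjusted p = 0.0496) in place of Slc2a3. Gapdh (ENSMUSG00000057666, chr6:125161715-125166467, minus strand) and Aldoa (ENSMUSG00000030695, chr7:126795234-126800751, minus strand) overlapped between the stages, with log2 fold changes of 0.70 ± 0.64 and 0.23 ± 0.37.

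The single E5.5 embryo had low Pfkp and high Eno1 and Ldha in its epiblast-like cells. Pfkp was at 7.94 CPM, below every E4.5 embryo, Eno1 at 3462 CPM and Ldha at 4653 CPM, above every E4.5 embryo. By the quasi-likelihood test of edgeR (Benjamini-Hochberg adjusted) 0 of 10 genes were called against E4.5, where 0.203% of genes were called higher and 0.164% lower, and 3 of 10 had an unadjusted p under 0.05, as had 944 of 12803 genes. These were Pfkp, at -4.50 ± 1.03 (adjusted p = 0.0649), Eno1, at 1.55 ± 0.42 (adjusted p = 0.162), and Ldha, at 1.33 ± 0.43 (adjusted p = 0.307). DESeq2 and limma each called 1 gene lower, which was Pfkp. The lone embryo is assumed in these fits to vary like the others.

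The 2 transporters did not follow each other at E5.5. Slc2a1 stood at 279 CPM and Slc2a3 at 34.5 CPM in the epiblast-like cells, against 88.1 and 600.0 CPM in the 8 endoderm-like cells of the same embryo. For Slc2a3 this order of the lineages was also that of each embryo at E4.5. Pfkp was at 42.5 CPM in these endoderm-like cells, 74.3% of it from 1 cell, and Gapdh at 7.67 CPM, 85.8% of it from 1 cell, against 116 CPM in the epiblast-like cells. The endoderm-like cells had a median of 4223 detected genes and the epiblast-like cells of 5599. With 1 embryo, the E5.5 lineages were not tested. Leiden clustering placed 0 of these 8 cells in an endoderm-like cluster (6 with the epiblast-like cells, 2 unnamed) and left 15 of the 51 epiblast-like cells unnamed, while the summed endoderm markers of the 8 cells ran from 16695 to 32556 CPM.

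**Figure D2:**
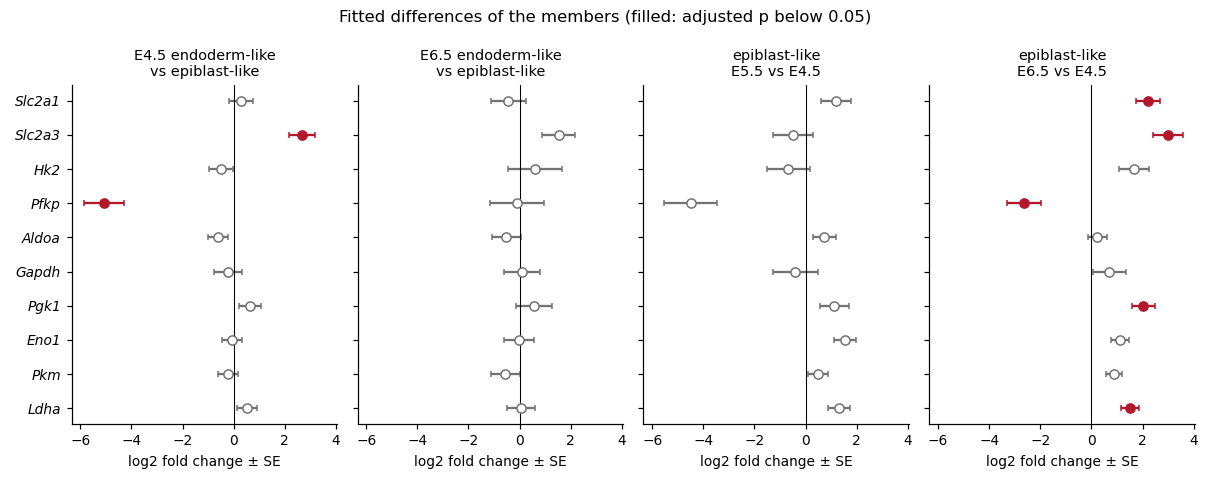
Log2 fold changes of the 10 genes with their standard errors in 4 comparisons, with filled points for an adjusted p under 0.05 in edgeR. Pfkp is called lower at E4.5 between lineages and at E6.5 against E4.5, and the transporters, Pgk1 and Ldha are called higher at E6.5.

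At E6.5 no gene of the 10 separated the endoderm-like from the epiblast-like cells by the test. In the quasi-likelihood test of edgeR (Benjamini-Hochberg adjusted) 0 of 10 were called, as in DESeq2 and limma, where 0.286% of genes were called higher and 0.219% lower in edgeR. Slc2a3 was the 1 gene with an unadjusted p under 0.05. It had 1133 and 537 CPM in endoderm-like cells of embryos 1 and 2 against 371 and 247 CPM in epiblast-like cells, higher in 2 of 2 embryos, with a log2 fold change of 1.52 ± 0.65 (edgeR adjusted p = 0.697). Pfkp was low in both lineages, at 11.7 and 30.4 CPM against 26.8 and 19.3 CPM, a log2 fold change of -0.11 ± 1.06. Hk2 went opposite ways in the embryos, at 169 against 637 CPM in embryo 1 and 988 against 139 CPM in embryo 2. Of these counts 1 cell gave 42% in the epiblast-like cells of embryo 1 and another 61.3% in the endoderm-like cells of embryo 2.

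The comparison at E6.5 rests on 2 embryos whose endoderm-like cells came mostly from different clusters. Of the 17 cells of embryo 1, 11 were in cluster 5, and of the 5 cells of embryo 2, 4 were in cluster 4, the cluster with the deepest libraries (a median of 4706789 counts against 1301128). In the alternative Leiden clustering 10 of these 22 cells fell with the epiblast-like cells. Pgk1 in endoderm-like cells was 582 CPM in embryo 1 and 2114 CPM in embryo 2, where 1 of 5 cells gave 61.5% of its counts. Without embryo 1, Hk2 and Pgk1 were called higher in edgeR, at 3.82 (adjusted p = 0.0109) and 2.36 (adjusted p = 0.0382), and without embryo 2 no member was. Endoderm-like cells of E6.5 held Pou5f1, an epiblast marker, in all 22 cells at a median of 131 CPM, beside endoderm marker sums of 1384 to 31857 CPM. They also held trophoblast RNA, with 8 of 8 trophoblast markers at or above 1 CPM, a median summed level of 106 CPM (1.53 to 475 CPM) against 23.2 CPM in the epiblast-like cells (2.60 to 397 CPM), and Elf5 read in 20 of 22 cells. The part of this mixing in the lineage values was not tested.

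The 23 mesoderm-like cells, all from E6.5 embryo 2, had the highest embryo-level values of Pkm, at 3706 CPM, and of Ldha, at 8262 CPM, among the named groups. The 10 epiblast-like cells of the same embryo stood at 2665 and 5001 CPM for these genes. Gapdh was also higher, at 511 against 327 CPM, and Eno1 at 3144 against 2471 CPM. Slc2a1 was lower, at 646 against 809 CPM, and Slc2a3 higher, at 417 against 247 CPM. Pgk1, at 821 against 817 CPM, and Pfkp, at 23.7 against 19.3 CPM, were close. With 1 embryo these values had no replicate check and no test.

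Pfkp was the 1 gene of the 10 called for a change of the lineage difference with stage, and the call held in 7 of 14 alternatives. The difference of the lineage effect, E6.5 minus E4.5, was 4.97 ± 1.31 on the log2 scale (edgeR adjusted p = 0.0160), from -5.08 at E4.5 to -0.11 at E6.5. In this test 0.598% of genes were called higher and 0.857% lower, and 1 of 10 members was. The median over all genes was -0.64 and over the members -0.01. The edgeR call was lost without E4.5 embryo 2, 3 or 4 (adjusted p = 0.0869, 0.0890 and 0.0773), without E6.5 embryo 2 (3.34, adjusted p = 0.369), without the embryo block (adjusted p = 0.0501) and with Leiden clusters (4.32, adjusted p = 0.0924), and limma did not call it (4.42, adjusted p = 0.181). Without E6.5 embryo 1 Hk2 was called too (4.25, adjusted p = 0.00675).

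In single cells Pfkp differed in the share of cells with any read. At E4.5 a read was found in 95% of 20 epiblast-like cells (exact binomial 95% interval 75.1 to 99.9%) and in 38% of 50 endoderm-like cells (24.7 to 52.8%). In E5.5 epiblast-like cells the share was 25.5% of 51 (14.3 to 39.6%). When each cell was thinned to 50000 counts, the shares were 95%, 22% and 15.7%. At E6.5 the share in epiblast-like cells was 87.5%, and 50% after thinning. The cells of a group share embryos (5 at E4.5 and 1 at E5.5) and reads carry no molecular identifiers, so the intervals cover counting error only and not the spread between embryos.

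Slc2a3 was read in 75% of E4.5 epiblast-like and 98% of E4.5 endoderm-like cells, and in 40% and 92% after thinning. Its median log2(CPM + 1) was 3.33 in the former and 8.27 in the latter, while that of Slc2a1 was 6.43 and 6.55. In E5.5 epiblast-like cells the medians were 1.07 for Slc2a3 and 8.11 for Slc2a1. At E6.5 every named cell had a Slc2a3 read, with medians of 7.73 in epiblast-like, 8.71 in mesoderm-like and 9.87 in endoderm-like cells.

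**Figure D3:**
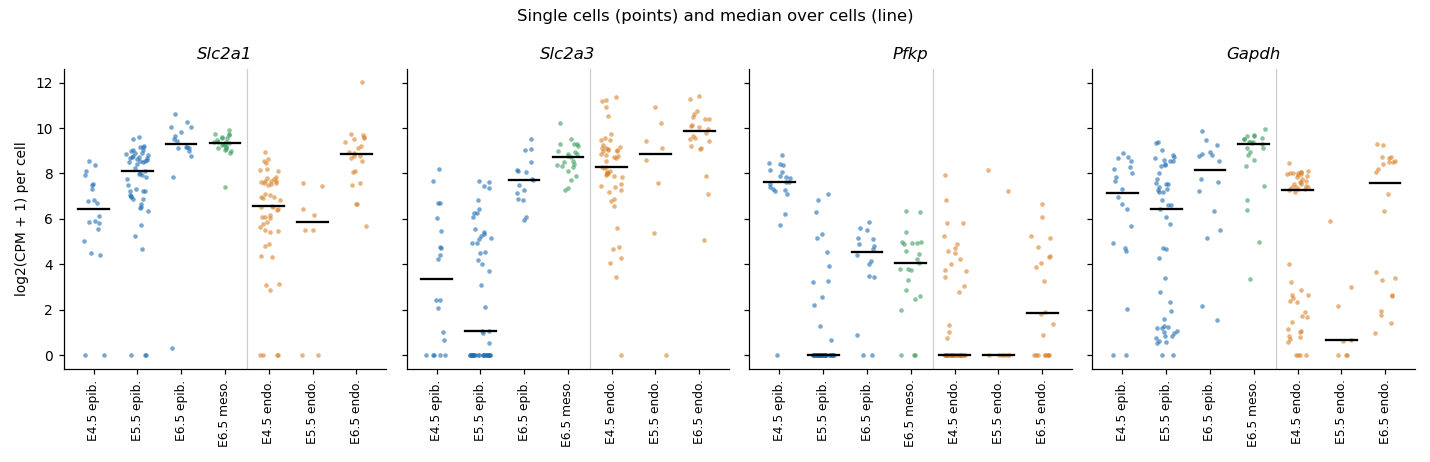
Log2(CPM + 1) of Slc2a1, Slc2a3, Pfkp and Gapdh in single cells by stage and lineage, with a line at the median of each group. Pfkp has a median of 7.62 in E4.5 epiblast-like cells and of 0 in E4.5 endoderm-like and E5.5 epiblast-like cells, and Gapdh spreads over a range of 5.89 or more in every group.

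Gapdh, often used as a reference gene, varied more from cell to cell than Aldoa before it and Pgk1 after it in the pathway in each named group. Its SD over cells of log2(CPM + 1) was 3.30 in E5.5 epiblast-like cells, against 0.63 for Aldoa and 1.03 for Pgk1, while in the unnamed E6.5 cells Gapdh (2.61) was below Pgk1 (2.68). In E5.5 epiblast-like cells the low Gapdh values went with fewer detected genes. In the 25 E5.5 epiblast-like cells under the median of 5599 detected genes Gapdh was at 38.4 CPM, and in the other 26 cells at 240.4 CPM, although the former had the deeper libraries, with medians of 1909520 and 1055530 counts. Across the 51 cells the Pearson correlation of Gapdh with log2 detected genes was 0.71, the highest of the 10 genes, and these cells share 1 embryo. The part of RNA quality in these levels was not tested.

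Correlations between the genes across cells ranged widely. Over the 45 pairs of genes the median Pearson correlation of log2(CPM + 1) was 0.23 in E4.5 epiblast-like (20 cells), 0.18 in E4.5 endoderm-like (50 cells), 0.16 in E5.5 epiblast-like (51 cells), 0.44 in E6.5 endoderm-like (22 cells), 0.11 in E6.5 epiblast-like (16 cells) and 0.06 in mesoderm-like cells (23 cells). The median correlation of a member with log2 detected genes was 0.70, 0.20, 0.40, 0.35, 0.20 and 0.11 in the same groups, and the cells of a group share embryos. The closest pairs were Pfkp and Eno1 in E4.5 epiblast-like (0.90), Pgk1 and Pkm in E4.5 endoderm-like (0.67), Eno1 and Pkm in E5.5 epiblast-like (0.69), Pgk1 and Eno1 in E6.5 endoderm-like (0.89), Eno1 and Ldha in E6.5 epiblast-like (0.95) and Pkm and Ldha in mesoderm-like cells (0.80).

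Across the 16 sums of an embryo and lineage, Pgk1, Slc2a1 and Pkm followed the mean of all 10 genes most closely, with correlations of 0.79, 0.75 and 0.73. Slc2a3 (0.37), Pfkp (0.01) and Aldoa (-0.14) did not follow it. Outside the lists, the 5 of 7920 genes most like the mean were Mif (0.92), Amotl1 (0.92), Hspd1 (0.90), Cd24a (0.90) and Hsp90ab1 (0.89). The sums share embryos, libraries and stage. Each of the 10 genes is part of the mean it was set against, which raises its correlation.

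Compared per kb of exon, Ldha was the highest member in every named group except the E4.5 epiblast-like cells, where Aldoa was. Over all 20 of those cells Aldoa stood at 1070.5 and Ldha at 909 CPM per kb, Pkm at 549.6, Eno1 at 459, Pgk1 at 133, Gapdh at 120.05, Pfkp at 49, Slc2a1 at 36.7, Hk2 at 34.2 and Slc2a3 at 12.3. Neighbours in this order overlapped over the 4 embryos, except that Eno1 lay above Pgk1 and Hk2 above Slc2a3 in every embryo's value. In the E4.5 endoderm-like cells Slc2a3, at 105 CPM per kb, stood above Slc2a1, at 37.3. Pfkp was at 2.86 CPM per kb there and its liver-type isozyme Pfkl at 86.3, while in epiblast-like cells Pfkl was at 20.8.

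Pfkl was 4.96-fold higher in endoderm-like than in epiblast-like cells at E4.5, the opposite of Pfkp. It stood at 683, 481, 495, 337 and 173 CPM in endoderm-like cells of embryos 1 to 5 and at 61.2, 195, 75.8 and 64.6 CPM in epiblast-like cells of embryos 1 to 4 (log2 fold change 2.31 ± 0.50, edgeR adjusted p = 0.000157), lost with P1 or P2 embryos alone (adjusted p = 0.339 and 0.0877). Per kb, Pfkp exceeded Pfkl in 13 of 20 E4.5 epiblast-like cells, 1 of 50 E4.5 endoderm-like cells and 0 of 51 E5.5 epiblast-like cells. At E6.5 it did so in 1 of 16 epiblast-like and 2 of 22 endoderm-like cells. By embryo, Pfkp was above Pfkl in the E4.5 epiblast-like sums of embryos 1, 3 and 4 and below it in embryo 2, at 45.5 against 52.3 CPM per kb. In the epiblast-like cells Pfkl was at 88.5 CPM per kb at E5.5 and 66.9 at E6.5, and its stage difference at E6.5 was 1.65 ± 0.54 (edgeR adjusted p = 0.0873). The muscle-type isozyme Pfkm, added after its values were seen, was at 5.47 CPM per kb in E4.5 epiblast-like cells and 5.76 in endoderm-like cells.

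**Figure D4:**
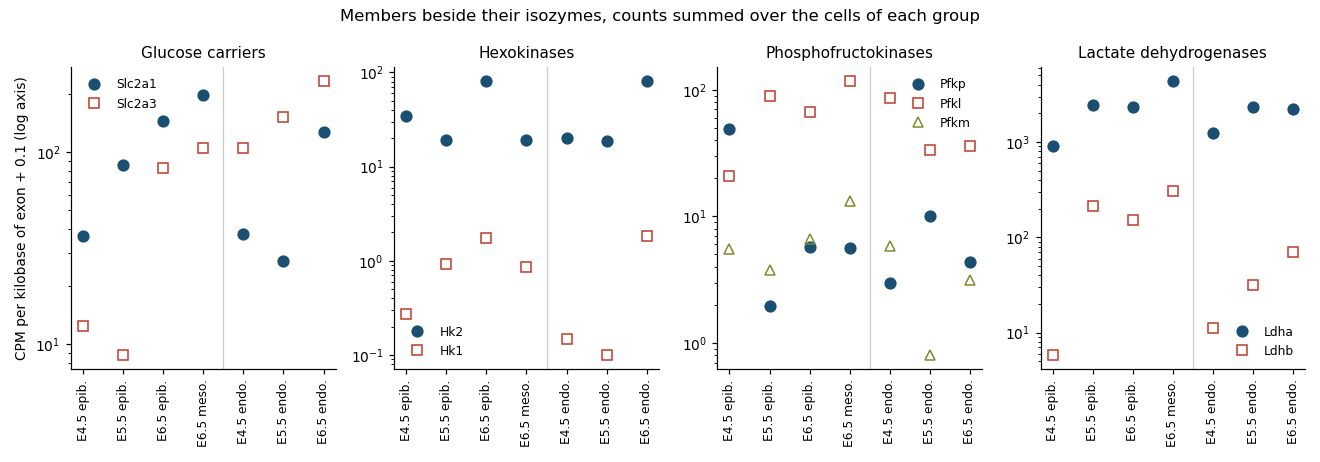
Levels per kb of exon (CPM per kb + 0.1, log axis) of Slc2a1 and Slc2a3, Hk2 and Hk1, the 3 phosphofructokinases and Ldha and Ldhb by stage and lineage. With the cells of all embryos pooled, Pfkp is above Pfkl in E4.5 epiblast-like cells and in no other named group, and Ldha is above Ldhb in all of them.

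The order of the 2 transporters also differed between lineages in most cells. Per kb, Slc2a3 exceeded Slc2a1 in 40 of 50 E4.5 endoderm-like, 7 of 8 E5.5 endoderm-like and 17 of 22 E6.5 endoderm-like cells. In epiblast-like cells it did so in 4 of 20 at E4.5, 2 of 51 at E5.5 and 2 of 16 at E6.5, and in 1 of 23 mesoderm-like cells. By embryo at E4.5, Slc2a1 was above Slc2a3 in all 4 epiblast-like sums, and Slc2a3 was above Slc2a1 in the endoderm-like sums of every embryo but embryo 2, where it stood at 31.2 against 67.6 CPM per kb. Ldha exceeded its partner Ldhb in every cell, and Hk2 exceeded Hk1 in 47 of 51 E5.5 epiblast-like cells and in all 50 E4.5 endoderm-like cells.

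Ldhb, the lactate dehydrogenase subunit of oxidative tissues, was called higher in E6.5 than in E4.5 epiblast-like cells. It stood at 22.6, 9.25, 0 and 7.65 CPM at E4.5, at 277 CPM at E5.5 and at 150.4 and 274 CPM at E6.5. Against E4.5 its log2 fold change at E6.5 was 4.58 ± 0.90 (edgeR adjusted p = 0.00407). The call was lost without E6.5 embryo 1 or 2 (adjusted p = 0.0899 and 0.0603) and with limma (adjusted p = 0.0591), at 4.70, 4.51 and 5.17. For the lone E5.5 embryo the fit gave 4.82 ± 0.999 (edgeR adjusted p = 0.0282), which no second embryo checks, and the call was lost with limma (adjusted p = 0.172), without cells over 4000000 counts (adjusted p = 0.0572) and with sums of at least 2 cells (adjusted p = 0.0510). At E4.5 few cells held Ldhb in either lineage. The endoderm-like cells of embryos 1 to 4 held 0 counts, and the epiblast-like cells 118, of which single cells gave 96.4%, 100% and 100% in embryos 1, 2 and 4. Against a floor of 3 counts over the group the level in epiblast-like cells of these embryos was at least 112-fold higher. Embryo 5, outside that fit, went the other way, with 42 CPM in its endoderm-like cells, all from 1 cell, so that over all cells Ldhb stood at 11.2 CPM per kb in endoderm-like and 5.73 in epiblast-like cells. The E4.5 call was lost with no replicate block (-0.16), with sums of at least 2 cells (-5.59), both at an adjusted p of 1 in edgeR, and with limma (-2.76, adjusted p = 0.107).

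Among the other glycolytic enzymes at E4.5, 3 of 14 tested were called higher and 2 lower in endoderm-like cells by edgeR, where 3.95% and 2.32% of all genes were. Besides Pfkl these were Tpi1, the triose phosphate isomerase, at 1.29 (edgeR adjusted p = 0.0491), and Pgam2, a phosphoglycerate mutase, which had 7 counts in epiblast-like and 2305 in endoderm-like cells. Lower were Ldhb and the enolase Eno3, with 153 counts against 1. With each of the 4 embryos left out in turn Tpi1 was called 0 times, Pgam2 1 time and Eno3 2 times in edgeR, and over all 14 alternatives 4, 8 and 9 times. The list's median log2 fold change was 1.27, beside 0.17 over all genes. At E6.5 against E4.5 in epiblast-like cells edgeR called 1 of 11 higher, Ldhb, and 0 lower, where 2.78% and 1.84% of all genes were. All 11 were positive with a median of 1.65, beside 6954 of 12803 genes positive and a median of 0.17. At E5.5 against E4.5, with 1 embryo at E5.5, edgeR again called 1 of 11 higher, Ldhb, and 0 lower. Of all genes 0.203% were called higher and 0.164% lower there. At E6.5 between lineages 0 of 14 were called or had an unadjusted p under 0.05, and 0 in DESeq2 or limma. For the change of the lineage effect edgeR called Ldhb higher and Pfkl lower, where 0.598% of all genes were called higher and 0.857% lower. DESeq2 added Eno3 higher and Pgam2 lower, and limma called 0.

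Of the genes that carry pyruvate and lactate onward, edgeR called 1 of each kind at E4.5. Mpc1, a subunit of the mitochondrial pyruvate carrier, had 118, 172, 130.3 and 302 CPM in E4.5 epiblast-like cells and 51.7, 24, 13.7, 51.7 and 28.3 CPM in endoderm-like cells, a log2 fold change of -2.62 (edgeR adjusted p = 0.00559). This call was lost without E4.5 embryo 2, 3 or 4 (adjusted p = 0.0731, 0.106 and 0.122), with limma (adjusted p = 0.172) and with P1 or P2 embryos alone (adjusted p = 0.792 and 0.225). Of the E4.5 Mpc1 counts 1 cell gave 62.7%, 66.4%, 39.7% and 70.8% in the epiblast-like sums of embryos 1 to 4. In the endoderm-like sums of embryos 1 to 5 it was 34.1%, 71.4%, 52.8%, 27.1% and 61.9%. In the epiblast-like cells Mpc1 fell to 0.961 and 5.18 CPM at E6.5 (-5.85, edgeR adjusted p = 0.000540, called in all 17 alternatives) and stood at 4.04 CPM at E5.5. In edgeR it was the 1 gene called of 11 tested for mitochondrial pyruvate use in each of these comparisons, with list medians of -0.68 and -0.98, where 2.32% and 1.84% of all genes were called lower. DESeq2 also called Pdk1 lower and Pdk2 higher at E4.5 and Pdha1 lower at E6.5, and limma called 0 at E4.5 and Mpc1 at E6.5. Slc16a3, a lactate exporter, had 177, 222, 216 and 119 CPM in E4.5 epiblast-like cells and 9.45, 135, 25.7, 38.5 and 18 CPM in endoderm-like cells (-2.54, edgeR adjusted p = 0.000427), lost without embryo 1 (-1.88, adjusted p = 0.0563), with limma (adjusted p = 0.0772) and with P1 or P2 embryos alone (adjusted p = 0.317 and 0.142). It stood at 473 CPM in E5.5 epiblast-like cells and at 102 and 302 CPM in those of E6.5. In edgeR it was the 1 gene called of 3 for lactate export at E4.5, against the same 2.32% of all genes, while Bsg, the partner protein of these carriers, had a log2 fold change of 1.07 ± 0.43 (edgeR adjusted p = 0.138) and was called higher by DESeq2 and limma. In edgeR 0 of 3 were called at E6.5 or E5.5 against E4.5, with 1 of 3 at an unadjusted p under 0.05 in each and 0 in DESeq2 and limma.

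The regulators and side pathways held few calls. Of 11 regulators of glycolysis Egln3, an oxygen-sensing prolyl hydroxylase, was the 1 gene called at E4.5 in edgeR, lower as were 2.32% of all genes, with 99 counts in epiblast-like and 0 in endoderm-like cells of embryos 1 to 4, at least 93.9-fold higher in the former, a call lost without E4.5 embryo 4 (edgeR adjusted p = 0.0662), with limma (adjusted p = 0.191) and with P1 or P2 embryos alone (adjusted p = 0.131 and 0.294). DESeq2 also called Myc lower and Pfkfb2 higher, and limma called Pfkfb2 higher. At E6.5 Pfkfb1, which sets the level of an activator of phosphofructokinase, was the 1 of 9 regulators called, higher as were 2.78% of all genes, but 99.8% of its counts in embryo 1 came from 1 cell, and without cells over 4000000 counts its log2 fold change was 1.22 (edgeR adjusted p = 0.858). Of the 6 other glucose transporters tested at E4.5 and 3 at E6.5 against E4.5, 0 were called in edgeR or DESeq2, 0 and 1 had an unadjusted p under 0.05, and limma called 1, Slc2a5, at E6.5. Of 7 pentose phosphate genes 0 were called in any comparison in edgeR, DESeq2 or limma, with 1 at an unadjusted p under 0.05 at E4.5 and 3 at E6.5 against E4.5. Of all genes tested, 2408 of 15060 at E4.5 and 2282 of 12803 at E6.5 against E4.5 had such a p. Between the E6.5 lineages 0 transporters, lactate export genes, mitochondrial genes and regulators were called in any of the 3 tools. At an unadjusted p under 0.05 were 1, 1, 2 and 0, as were 726 of all 15060 genes tested. At E5.5 against E4.5 they were 0 in edgeR, with 0, 1, 1 and 1 at an unadjusted p under 0.05, while DESeq2 and limma each called Mpc1 lower.

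Some of the genes have close copies or more distant paralogues that could take or give reads. Over the kept cells Eno1b held 13980 counts against 708561 for Eno1, and Pgk1-rs7 held 3334 against 212613 for Pgk1. Gapdhs held 553 counts against 55177 for Gapdh, Ldhal6b 301 against 1334871 for Ldha, Aldoart1 227 against 672453 for Aldoa, and Pgk2 had 0. How reads mapping to several places were counted is not given in the sources used here, so the levels of these 5 genes are uncertain to that extent.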

How the data were processed

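RNA of single embryo cells was sequenced by scM&T-seq, in which RNA and DNA of 1 cell are separated and the RNA amplified by Smart-seq2, which adds no molecular identifiers. The authors deposited counts of reads per gene, not normalized. Per the submitters' processing notes, Trim Galore, HISAT2 2.1.0, featureCounts and GRCm38 were used, with the annotation not given in the sources used here. The bisulfite data were not analysed here. Gene symbols were matched for 21907 of 22084 identifiers, and coordinates are from GENCODE M21 on GRCm38. In 4148 genes no cell held a count.

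The 10 genes, the other lists and the tests were chosen with earlier results of these data known. Groups came from the labels, which name 5 embryos at E4.5 where the study's text gives 4. Cells with at least 50000 counts and 2000 genes were kept, with median counts of 918469, 1511811 and 1107378 in order of stage. No 2 kept cells were identical, and doublets were not called, so mixed cells could remain. Lineages were rebuilt by clustering within each stage and named from markers, so a difference from the study could come from these names. Clusters raised for both epiblast and endoderm markers were left unnamed, as was an E6.5 cluster of 3 cells. Trophoblast markers did not enter the rule on mixing. E6.5 cluster 5, named endoderm-like, had 13 endoderm and 8 trophoblast markers raised. Counts were summed per embryo and lineage (at least 3 cells) and compared in edgeR 4.0.16 by its quasi-likelihood test, with TMM scaling, the default filter on low counts and Benjamini-Hochberg adjustment at a threshold of 0.05. Lineage comparisons had the embryo as a block, because both lineages came from the same animals, and stage comparisons had none. A fold change is from this fit and a CPM from the raw sums. In cells, log2(CPM + 1) was used. Named genes were the 10 members and any gene of the other lists called in a comparison, and Hk1 and Pfkm were added later. Alternatives were DESeq2 1.42.0, limma 3.58.1 on cells weighted equally, no filter, a stricter filter on cells (200000 counts, 4000 genes), Leiden clusters, block settings, all kept cells of an embryo, each E4.5 prefix alone and each embryo left out. The fit was tested on simulated data. Python 3.11.15, scanpy 1.11.5 and R 4.3.3 were used. Exact (Clopper-Pearson) intervals and floors of 3 counts cover counting error only.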

Additional observations from a re-analysis of the deposited data

Results flagged for a closer look

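In 38 groups of 4 or 5 embryos, 5 had a value far from the others by Dixon's test at 95%, where chance gives about 1 in 20 groups. In 3 of the 5 every other embryo was at 0, so any count would stand out and the chance rate does not apply. Pfkl in E4.5 epiblast-like cells was 195 CPM in embryo 2 and 61.2 to 75.8 CPM in the other 3. Slc16a3 in E4.5 endoderm-like cells was 135 CPM (134.5) in embryo 2 and 9.45 to 38.5 CPM in the other 4. Ldhb in E4.5 endoderm-like cells was 42 CPM in embryo 5, all from 1 cell, and 0 in the others. Pgam2 in E4.5 epiblast-like cells was 2.82 CPM in embryo 1 and 0 in the other 3, and Egln3 in E4.5 endoderm-like cells was 0.048 CPM, 1 count, in embryo 5 and 0 in the others.

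The effect of lineage differed between E6.5 and E4.5, by a test of the difference itself in edgeR, for Pfkp (4.97 on the log2 scale), Pfkl (-3.13, adjusted p = 0.0200) and Ldhb (9.19, adjusted p = 1.01e-05). The Ldhb value compares groups of which 1 had 0 counts, so its size and its p are set by the fit and give no bound. Ldhb was called in 10 of 14 alternatives and lost with limma (1.34, adjusted p = 0.690), with Leiden clusters (4.52, adjusted p = 0.898 in edgeR), with sums of at least 2 cells (4.57, adjusted p = 0.0764 in edgeR) and with no replicate block (-0.83). Pfkl was lost in edgeR without E4.5 embryo 1, 3 or 4 and without E6.5 embryo 1 (adjusted p of 0.0848, 0.117, 0.0788 and 0.0889), with limma (adjusted p = 0.176) and with Leiden clusters (adjusted p = 0.191).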

How the results depend on the processing

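Alternative values were computed for called list genes and, at E4.5 between lineages and at E6.5 against E4.5, for all 10 members. In the other comparisons only members with an unadjusted p under 0.05 were followed, with Pfkp added between the E6.5 lineages. Of these 587 values 463 kept direction and call, 85 lost the call, 19 gained one and 20 changed sign. The count of members called changed as follows, the cause not being tested. Called higher at E4.5 between lineages were 2 with the stricter filter on cells, 2 with Leiden clusters (Pgk1 was added in both), 0 with limma, and 0 with P1 or P2 embryos alone, each of which holds fewer embryos. The 1 called change of lineage effect became 0 with limma, Leiden clusters or no replicate block. At E6.5 against E4.5 a replicate block by embryo number gave 2 higher and 0 lower. All kept cells of an embryo, which pools the lineages, gave 7 higher and 0 lower. Smaller changes there were 6 higher with no filter, 5 with Leiden clusters and 3 with limma, each with 1 lower. At E5.5 against E4.5, DESeq2 and limma gave 1 lower each, no filter 2 higher and 1 lower, the stricter filter on cells 1 higher and 1 lower, and all kept cells 1 higher. With each embryo left out in turn, called higher were 0 to 2 for the change of lineage effect, 0 to 2 at E6.5 between lineages and 1 to 4 at E6.5 against E4.5, with 0 to 1 lower in the last.

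Among the values followed, signs changed as listed here, Ldhb being the 1 called gene among them. At E6.5 against E4.5 Aldoa was -0.21 with the stricter filter on cells, -0.16 with the replicate block and -0.00402 without cells over 4000000 counts, where Hk2 was -0.35. At E4.5 between lineages Gapdh was 0.16 and Eno1 0.11 with limma, Hk2 0.21, Gapdh 1.10 and Pkm 0.0696 with P1 embryos, and Slc2a1 -0.24 and Eno1 0.26 with P2 embryos. With no replicate block Pfkp at E6.5 between lineages was 0.11, and Ldhb, called in the change of lineage effect, was -0.83. With each embryo left out Gapdh at E4.5 ran from -1.05 to 0.29, Eno1 from -0.21 to 0.0611, Pfkp at E6.5 between lineages from -1.66 to 1.64, and at E6.5 against E4.5 Hk2 from -0.41 to 2.47 and Aldoa from -0.41 to 0.70.

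Embryos that share a number at different stages did not deviate together (correlations of 0.00169 and 0.00409 over 12803 genes), so the block by number pairs no animals. Sums of at least 2 cells and the limit of 4000000 counts were chosen after seeing the data. The stage comparisons and the E6.5 lineage comparison rest on 2 embryos at E6.5 and 1 at E5.5, and no reading of 1 stage is independent of its label prefix.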

Other observations

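The 5 unnamed E4.5 cells carried markers of both lineages. Pfkp in these cells was 77, 71.5, 62.8 and 179.5 CPM in embryos 1, 3, 4 and 5, between the lineages of the same embryo in each case. Slc2a3 was 176, 150.1, 50.2 and 146 CPM in the same order, between the lineages of the same embryo in embryos 1, 3 and 5 and below both in embryo 4. In embryo 5 the epiblast-like value rests on 2 cells. Per kb, Pfkp exceeded Pfkl in 2 of the 5 cells and Slc2a3 exceeded Slc2a1 in 2 of the 5. Whether these are mixed cells or single cells with both sets of RNA was not tested. The 22 unnamed E6.5 cells had a median correlation of 0.54 over the 45 pairs of genes, with 43 pairs positive. In these cells the median correlation of a member with log2 detected genes was 0.75.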
